A study of Mus musculus with 18 samples.

Results

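The stefin and cystatin genes Stfa1, Stfa2, Stfa3, Stfa2l1, Cstdc4, Csta2, Cstb, Cst3 and Cst7 encode inhibitors of lysosomal cysteine proteases. Their transcripts were followed in sorted mouse marrow cells, sequenced in bulk, that differed in Fabp4, the gene of a fatty acid binding protein known from adipocytes and macrophages. These 9 genes, of 22608 listed across 2 tables of FPKM (fragments scaled to transcript length and library size), were chosen by name because several had their highest values in heterozygous cells of the in vitro set. Comparisons of in vitro heterozygotes with another genotype are therefore given for these 9 genes as values without a test, and the homozygous knockout against wild-type comparison in vitro and every comparison in sorted marrow were tested.

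The series title concerns Fabp4 in leukemia stem cells as against hematopoietic stem cells. The in vitro set held cells sorted from what the labels call vitro bone marrow, from Fabp4 heterozygous knockout (HET), homozygous knockout (KO) and wild-type (WT) mice, with 3 libraries per genotype. The marrow set held cells sorted from bone marrow, with 2 HET, 3 KO and 3 WT libraries, and replicate 2 of the HET group was not analysed here. The labels name no other allele, agent, strain or age, and leave the sorted population and the culture unnamed. By the design text there were 3 mice for each genotype of a set. It ties no library to a mouse, so p-values cover the spread among libraries, which may be technical. Every in vitro library held transcripts of both sexes, given below, so a library may mix mice. All 9 genes were listed in both tables. In vitro 9 of 9 passed the filter for testing (an FPKM of 1 or more in 3 or more libraries) among 10877 genes, and in marrow 7 of 9 passed among 7246, without Stfa3 and Cst7.

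Stefins are small cytosolic inhibitors that wedge into the active site cleft of papain-like cysteine cathepsins and block it reversibly. Cystatin C (Cst3) is a secreted relative made by many cell types, and cystatin F (Cst7) is a relative of leukocytes that acts inside lysosomes and granules. Humans have a single stefin A gene, while mice have a tandem cluster of stefin A genes that are known as transcripts of neutrophils and their marrow precursors. Stefin B (Cstb) is made by most cells.

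The cluster members lie close together on chromosome 16 of GRCm38.p6, from 36156811 to 36455392. Stfa2l1, Cstdc4, Csta2 and Stfa1 are annotated on the plus strand, and Stfa2 and Stfa3 on the minus strand. Cstb lies on chromosome 10 (78425670 to 78427622), and Cst3 (148871722 to 148875512) and Cst7 (150570415 to 150578944) lie on chromosome 2. The 100 bases before the annotated start of each cluster member are shown because 5 of the 6 share a run of 13 bases, in capitals, and the sixth does not. The sequences come from RefSeq promoters of GRCm38.p6 and read 5′ to 3′ along the gene.
Stfa2l1: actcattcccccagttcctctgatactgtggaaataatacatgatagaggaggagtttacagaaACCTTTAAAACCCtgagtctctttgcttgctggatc
Cstdc4: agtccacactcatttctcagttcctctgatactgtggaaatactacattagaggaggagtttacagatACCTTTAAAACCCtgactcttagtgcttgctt
Stfa1: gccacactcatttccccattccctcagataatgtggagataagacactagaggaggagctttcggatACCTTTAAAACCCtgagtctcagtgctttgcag
Stfa2: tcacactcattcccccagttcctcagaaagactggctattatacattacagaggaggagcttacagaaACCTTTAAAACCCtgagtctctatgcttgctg
Stfa3: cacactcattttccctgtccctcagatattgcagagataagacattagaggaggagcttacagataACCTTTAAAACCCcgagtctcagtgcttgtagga
Csta2: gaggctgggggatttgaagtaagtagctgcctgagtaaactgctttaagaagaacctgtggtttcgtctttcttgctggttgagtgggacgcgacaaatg

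The Stfa2l1 stretch was chr16:36156711-36156810 on the plus strand. The Cstdc4 stretch was chr16:36184112-36184211 on the plus strand. The Stfa1 stretch was chr16:36277048-36277147 on the plus strand. The Stfa2 stretch was chr16:36408364-36408463 on the minus strand. The Stfa3 stretch was chr16:36455393-36455492 on the minus strand. The Csta2 stretch was chr16:36221462-36221561 on the plus strand. The run ACCTTTAAAACCC began 32 to 36 bases before the annotated start in Stfa2l1, Cstdc4, Stfa1, Stfa2 and Stfa3. It was picked after the sequences were seen, as a longest run shared by 5 promoters. On both strands it was found in 9 of 32851 promoter windows (0.0274%, each 250 bases before to 50 after the start), and the other windows belonged to Csta3, Cstdc3, Cstdc5 and Gm7260. A further shared run, GATCATTTCTTCT, was in 10 windows (0.0304%), with the same 5 members among them. The TATA box letters TATAAA stood in 13.6% of all windows and in no window of a listed stefin or cystatin gene. The C/EBP-type letters TTGCNNAA stood in 10.8% of all windows and in those of Stfa1 and Cst7. Cstb had no entry. These matches describe letters in a window, and variants of the TATA box or C/EBP-type letters were not searched for.

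The copies resemble each other closely enough to bear on their values. Over the coding sequence, Cstdc4 and Csta2 were 96.9% identical and Stfa2 and Stfa2l1 were 96.5% identical, while Stfa1 and Stfa2l1 were 73.4% identical. Of all windows of 50 bases in a transcript, 35.6% of those of Cstdc4 and 22.0% of those of Csta2 occurred in another of the 13 transcripts compared, mostly in each other. For Stfa1 26.9% of the windows occurred elsewhere, mostly in Cstdc5, a neighbouring stefin gene outside the list, and for Stfa2l1 and Stfa2 the shares were 16.8% and 14.7%. Stfa3, Cstb, Cst3 and Cst7 shared no window. The rule by which the authors assigned fragments to copies was not given in the sources used here. Thus the split between Cstdc4 and Csta2, between Stfa2 and Stfa2l1, and between Stfa1 and Cstdc5 is uncertain, and the summed FPKM of the 6 cluster members is given beside them.

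The in vitro libraries were alike in depth, at an estimated 30.7 to 37.0 M fragments, and listed 16779 to 18029 genes above 0. The marrow libraries were uneven, with an estimated 3.94 and 11.7 M fragments for HET replicates 1 and 3, 16.3 to 35.8 M for KO and 21.7 to 31.2 M for WT. They listed 3633 and 5209 genes above 0 in HET, 6560 to 8519 in KO and 8194 to 8526 in WT. Marrow WT replicate 3 held far less of the abundant neutrophil transcripts than the other libraries, and the marrow log2 differences of the stefin and cystatin genes from WT are given with and without it. Fabp4 in vitro was listed at 0, 0.0676 and 0 FPKM in HET, at 0 in all 3 KO libraries and at 0, 0.0326 and 0.330 FPKM in WT, which is too low to check the genotype labels, and in marrow it was not analysed here.

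In vitro, transcripts of the stefin A cluster were most abundant in HET libraries, while Cstb was level. The summed FPKM of the 6 cluster members was 128, 174 and 177 in HET, against 48.1, 48.7 and 34.9 in KO and 46.5, 53.2 and 85.9 in WT. The means were 159.6 ± 27.8 in HET, 43.9 ± 7.80 in KO and 61.9 ± 21 in WT (SD, n = 3 each), a HET to WT ratio of 2.58 and a HET to KO ratio of 3.63. All 3 HET libraries lay above all KO and WT libraries, whose ranges overlapped. In bulk RNA, fewer cells of a type and less RNA per cell cannot be told apart.

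Cstdc4, a stefin A-like gene, had the highest level in HET among the chosen cluster members. The neighbouring Cstdc5, which was not chosen, was higher in HET, at 72.2, 105 and 116 FPKM. Cstdc4 was listed at 46.6, 61.5 and 67.6 FPKM in HET, at 13.9, 11.1 and 9.30 in KO and at 12.5, 15.8 and 26.4 in WT. The HET libraries did not overlap either group, and KO and WT overlapped. The mean was 3.21 times that of WT and 5.13 times that of KO. Csta2, its near-identical copy, was listed at 16.0, 21.9 and 18.9 FPKM in HET, at 3.70, 3.37 and 3.86 in KO and at 4.28, 6.99 and 10.5 in WT. For Csta2 the 3 genotypes formed 3 ranges that did not overlap, with HET at the top and KO at the bottom.

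Stfa1, a stefin A gene of neutrophil precursors, was listed at 33.3, 46.5 and 46.3 FPKM in HET, at 18.0, 24.8 and 14.4 in KO and at 23.0, 18.9 and 31.3 in WT. The HET libraries lay above both other groups, by a smaller ratio than in the rest of the cluster (1.72 over WT and 2.21 over KO). Stfa3 was listed at 11.6, 13.8 and 12.4 FPKM in HET, at 2.68, 0.908 and 2.07 in KO and at 2.70, 2.74 and 7.24 in WT. Its HET libraries lay close together, and the HET to KO ratio of 6.68 was the highest among the 9 genes.

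Stfa2l1, the stefin A2-like gene, was listed at 15.7, 18.3 and 21.7 FPKM in HET, at 5.97, 6.40 and 3.69 in KO and at 3.14, 6.40 and 6.05 in WT. HET stood clear of KO and WT, which occupied almost the same range. Stfa2, its near-identical copy, was listed at 4.35, 12.1 and 10.1 FPKM in HET, at 3.94, 2.14 and 1.60 in KO and at 0.961, 2.33 and 4.35 in WT. HET replicate 1 of Stfa2 lay level with the highest WT library.

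The members outside the cluster differed less. Cst7, cystatin F, was listed at 115, 106 and 94.1 FPKM in HET, at 75.5, 75.4 and 75.8 in KO and at 67.7, 89.3 and 108 in WT. Its HET libraries lay above the tightly grouped KO libraries and overlapped WT. Cst3, cystatin C, was listed at 323, 339 and 328 FPKM in HET, at 390.0, 442 and 374 in KO and at 344, 339 and 377 in WT. Here HET was the lowest group, by a ratio of 0.934 to WT and 0.822 to KO. The highest HET and the lowest WT library of Cst3 were almost level, at 339.2 and 339.4 FPKM. With quantile normalization the HET minus WT difference of Cst3 was 0.0454 on the log2 scale. Cstb, stefin B, was listed at 102, 105 and 109.6 FPKM in HET, at 103, 112 and 97.9 in KO and at 97.8, 105 and 124 in WT, and the 3 ranges overlapped.

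On the log2(FPKM + 1) scale, which understates the change of low genes, the HET minus WT difference was 0.77 for Stfa1, 1.49 for Stfa2, 1.48 for Stfa3, 1.70 for Stfa2l1, 1.68 for Cstdc4 and 1.33 for Csta2. The HET minus KO difference ran between 1.12 for Stfa1 and 2.29 for Stfa3 within the cluster. Outside the cluster the HET minus WT difference was -0.04 for Cstb, -0.10 for Cst3 and 0.27 for Cst7. Every HET library lay above every WT library for 5 of the 9 genes, a pattern that 17.2% of the 10877 genes showed. For 1 of the 9, Cst3, every HET library lay below every WT library (11.9% of the genes), the nearest being almost level. Every HET library lay above every KO library for 7 of the 9 genes (11.1% of the genes) and below for 1 of the 9 (Cst3; 11.3% of the genes). Nothing is read from these counts, since the same values chose the genes.

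**Figure D1:**
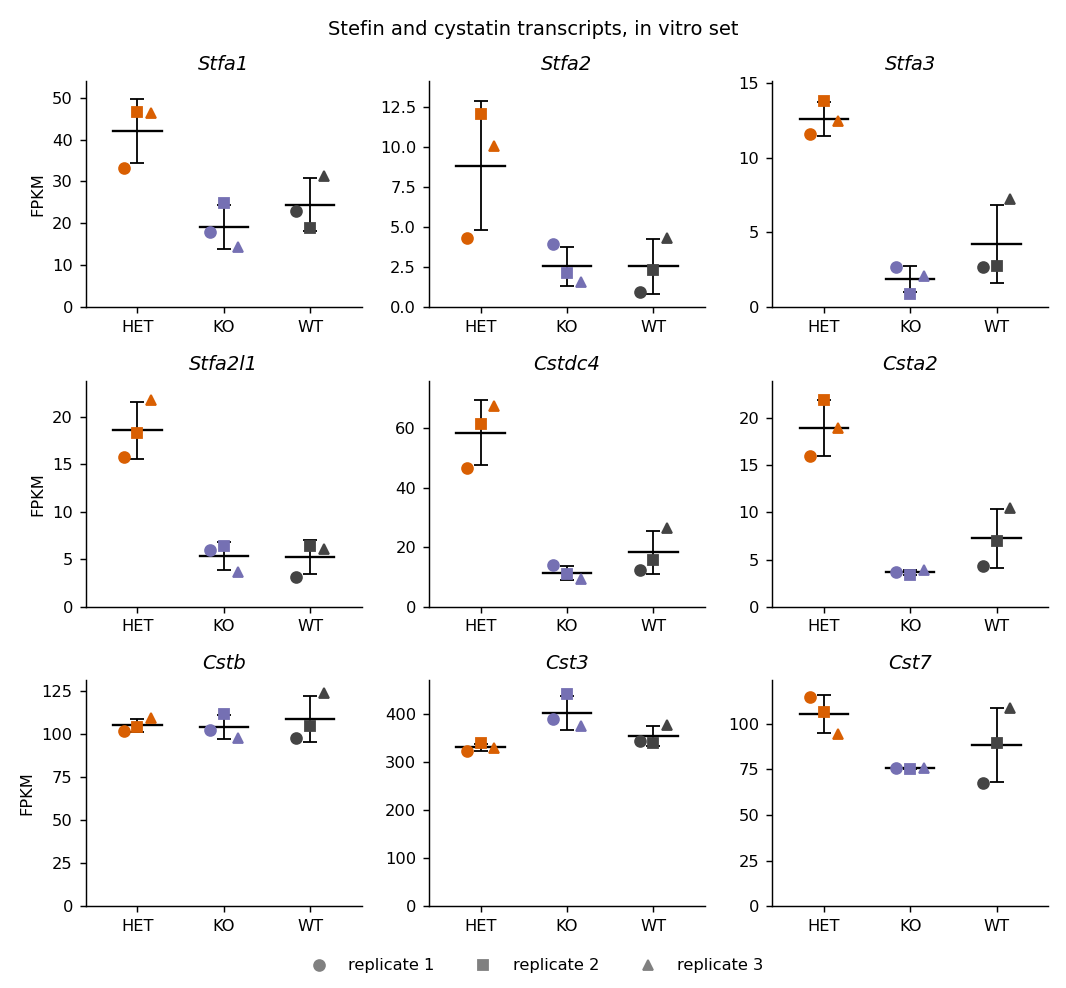
FPKM of the 9 genes in the 9 in vitro libraries (vertical axis, from 0, 1 panel per gene), by genotype, with points for libraries, shapes for replicate numbers, and lines and bars for the mean and SD (n = 3). In the 6 stefin A cluster panels the HET mean stands highest, from 8.85 FPKM for Stfa2 to 58.5 FPKM for Cstdc4, while the Cstb panel is level at 105, 104 and 109 FPKM in HET, KO and WT.

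The levels themselves, which FPKM makes comparable between genes per length, spanned a wide range in HET cells. Cst3 was highest, followed by Cstb and Cst7, whose ranges overlapped (102 to 109.6 and 94.1 to 115 FPKM). Cstdc4 and Stfa1 came next without overlap, though their nearest libraries were 46.6 and 46.5 FPKM. Csta2 and Stfa2l1 overlapped (16.0 to 21.9 and 15.7 to 21.7 FPKM), as did Stfa3 and Stfa2 (11.6 to 13.8 and 4.35 to 12.1 FPKM). In WT cells Stfa1 and Cstdc4 overlapped (18.9 to 31.3 and 12.5 to 26.4 FPKM), and Csta2, Stfa2l1, Stfa3 and Stfa2 each overlapped with the next.

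The shares of Stfa1 and Cstdc4 in the 6-gene cluster sum also stood apart in HET from those in KO and WT in vitro, as a description of these libraries. The HET shares of Stfa2, Stfa3, Stfa2l1 and Csta2 each overlapped those of KO or WT. Stfa1 made up 26.1 to 26.7% of the summed FPKM of the 6 genes in HET, 37.3 to 51.0% in KO and 35.6 to 49.3% in WT. Cstdc4 made up 35.3 to 38.2% in HET, 22.7 to 28.9% in KO and 26.9 to 30.8% in WT. Stfa1 was thus the leading gene of these 6 in all 6 KO and WT libraries and Cstdc4 in all 3 HET libraries. Cstdc5, outside these 6, was listed at 72.2 to 116 FPKM in HET, 33.3 to 50.04 in KO and 20.3 to 57.2 in WT. Its split from Stfa1 is uncertain, as is that between Cstdc4 and Csta2.

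Several markers of neutrophils and monocytes were also higher in HET. The summed FPKM of 15 neutrophil markers was 2114 to 3880 in HET, 1459 to 2064 in KO and 625 to 1647 in WT. Of these markers 0 were listed at 0 in HET and KO, and at most 1 in a WT library. In limma tests 7 of the 14 tested neutrophil markers were higher in HET than in WT and 0 lower, against 3.68% of all genes called in either direction, and 4 of 14 were higher in HET than in KO, against 1.99%. The secondary granule genes Camp and Ngp, which belong to the cystatin superfamily by their precursor domain, summed to 446 to 873 FPKM in HET, 345 to 584 in KO and 128 to 429 in WT. Of 10 tested monocyte and macrophage markers 5 were higher in HET than in WT and 3 higher in HET than in KO.

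Relative to the neutrophil markers, the cluster sum was 4.56 to 6.03% in HET, 2.36 to 3.30% in KO and 3.84 to 7.44% in WT. On this ratio HET and WT overlapped, and every KO library lay below both. Relative to Camp and Ngp, the cluster sum was 20.3 to 28.6% in HET, 8.34 to 14.0% in KO and 13.7 to 36.4% in WT. There KO replicate 1 lay above WT replicate 2, so KO and WT overlapped. The sum of 4 Y chromosome genes was 25.7 to 30.3 FPKM in HET, 16.1 to 18.1 in KO and 8.68 to 11.1 in WT, and the X inactivation RNA Xist was at 12.3 to 18.2, 25.2 to 43.2 and 31.4 to 49.6 FPKM in HET, KO and WT. Every in vitro library thus held Y chromosome transcripts and Xist together, so none may stand for a single mouse. The Y sums of the 3 genotypes did not overlap, so sex make-up and genotype cannot be told apart in vitro. The part of the cell type markers and of the sex-linked transcripts in the stefin differences was not tested. The sum of 10 stem and progenitor markers was 355 to 389 FPKM in HET, 361 to 404 in KO and 344 to 354 in WT. Of 9 tested stem and progenitor markers 3 were lower in HET than KO (Flt3, Hlf, Mecom) by limma, against 1.99% of all genes. For KO against WT 2 of 9 were higher in KO (Flt3 and Hlf), against 2.99%. For HET against WT 0 of 9 passed, against 3.68%. These shares count calls in either direction.

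**Figure D2:**
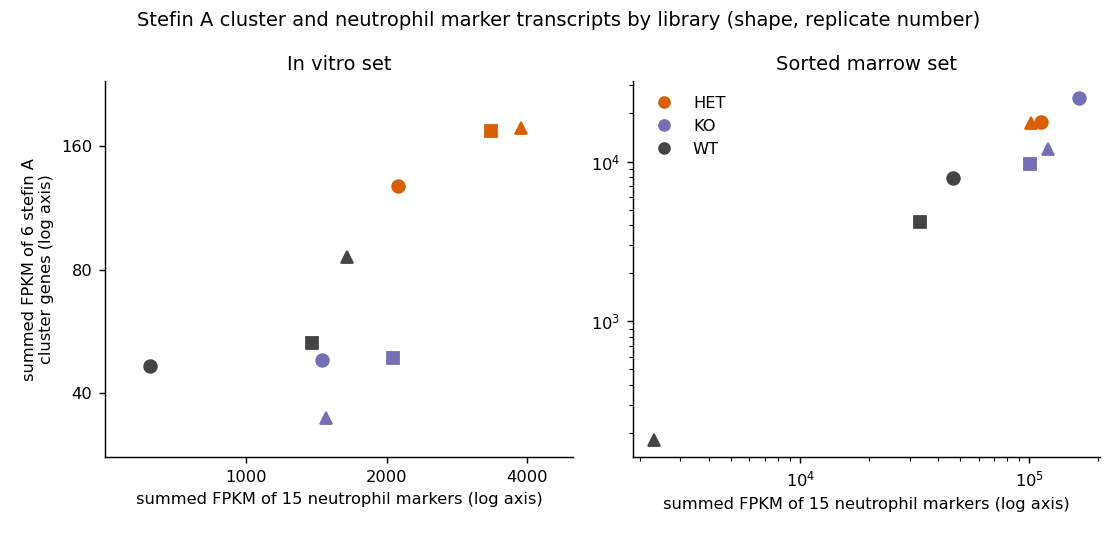
Summed FPKM of the 6 stefin A cluster genes (vertical, log axis) against the summed FPKM of 15 neutrophil markers (horizontal, log axis), a point per library, in vitro on the left and in sorted marrow on the right. In vitro the 3 HET libraries sit top right, and the KO libraries sit at 34.9 to 48.7 FPKM of the cluster, against 46.5 to 85.9 in WT; in marrow WT replicate 3 sits alone at 181 against 2302 FPKM.

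The proteases that stefins and cystatins inhibit were looked at next, as far as 8 of 11 listed cysteine protease genes could be tested in vitro. Cathepsin S (Ctss), the protease of antigen processing in myeloid cells, was listed at 16.4, 20.5 and 19.4 FPKM in HET, at 5.57, 3.50 and 3.95 in KO and at 4.30, 3.79 and 6.71 in WT. The HET libraries lay far above both groups, with a log2 difference of 1.76 ± 0.18 to WT (SE, limma adjusted p = 0.000257) and 1.90 ± 0.18 to KO (adjusted p = 0.000205). Both calls held under every alternative and with any library left out. Cathepsin L (Ctsl) was slightly higher in HET than in WT (22.2 ± 0.474 and 17.2 ± 0.809 FPKM, SD, n = 3, log2 difference 0.34, limma adjusted p = 0.0223), and this call ended without any of HET replicates 1, 2 and 3 or WT replicate 2 (adjusted p up to 0.101). It also ended with median-ratio size factors (adjusted p = 0.0509) and in a fit of the compared groups alone (0.0579). Cathepsin C (Ctsc), which activates granule serine proteases and is a target of cystatin F, was higher in HET than in KO (28.1 ± 1.01 and 21.2 ± 0.553 FPKM, SD, n = 3, log2 difference 0.39, limma adjusted p = 0.0402). That call ended without any HET or KO library or WT replicate 2 (adjusted p up to 0.180), and also with no filter (0.0740), quantile normalization (0.0506) and median-ratio size factors (0.0629). For KO against WT 0 of the 8 genes passed, against 2.99% of all genes.

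Among 11 tested genes of other leukocyte protease inhibitors, the whey acidic protein domain genes Wfdc17 and Wfdc21 were higher in HET. Wfdc17 averaged 32.9 ± 4.36 FPKM in HET, 13.8 ± 0.986 in KO and 9.71 ± 1.29 in WT (SD, n = 3 each), with limma adjusted p = 2.44e-05 against WT and 0.000210 against KO. Wfdc21 averaged 46.5 ± 11.2 FPKM in HET, 17.1 ± 4.85 in KO and 14.2 ± 2.16 in WT (SD, n = 3 each), with limma adjusted p = 0.00119 against WT and 0.00356 against KO. These 4 calls also held under every alternative. Serpina3f, a serine protease inhibitor gene, was lower in HET than in WT (1.31 and 2.41 FPKM, log2 difference -0.56, limma adjusted p = 0.0404), and the call ended without any of 7 of the 9 libraries (adjusted p up to 0.145), with no filter (0.0802) and in a fit of the compared groups alone (0.0748). Of 27 further cystatin superfamily genes 11 were listed and 3 were tested (Camp, Ngp and Cstdc5). Of these 0 passed in any in vitro comparison, against 1.99 to 3.68% of all genes. Cstdc5 was listed at 72.2, 105 and 116 FPKM in HET, at 39.6, 50.04 and 33.3 in KO and at 20.3, 45.7 and 57.2 in WT (HET minus WT log2 difference 1.32 ± 0.33, SE, limma adjusted p = 0.0605).

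The genes outside the 9 whose in vitro profiles lay nearest to the cluster sum were taken, with predicted genes and pseudogenes left out, from 9510 genes of mean FPKM of at least 2, by the root mean square distance of centred log2(FPKM + 1) over the 9 libraries. Of the cluster members themselves, Cstdc4 (0.199), Csta2 (0.236) and Stfa2l1 (0.293) lay nearest to their sum. The nearest other genes were Ctss (distance 0.252), the interferon-induced membrane protein gene Ifitm6 (0.269), Wfdc21 (0.332), the coagulation factor VII gene F7 (0.336) and Bst1, an ectoenzyme gene of myeloid and stromal cells (0.337). Their Pearson r with the cluster sum was 0.915 to 0.960 over 9 libraries that share their genotypes, given as a description. Nearest to Cst7 outside the 9 genes were Naaa (0.0761), Rufy4 (0.0835) and Ifi30 (0.0895), the last a thiol reductase of lysosomal antigen processing.

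KO and WT cells were compared in vitro by limma, since the choice of the genes did not use that difference. None of the 9 genes passed the threshold (0 of 9 at an adjusted p of 0.05, against 2.99% of the 10877 genes tested), and 4 of 9 had an unadjusted p under 0.05, against 19.4% of the genes. Csta2 came closest. At 3.64 ± 0.248 FPKM in KO and 7.24 ± 3.10 in WT (SD, n = 3 each), its log2 difference was -0.76 ± 0.22 (SE, adjusted p = 0.0903), with every KO library below every WT library. Without WT replicate 1 the difference was -1.05 and passed (limma adjusted p = 0.00790). Stfa3 also had every KO library below every WT library, with a log2 difference of -0.80 ± 0.31 (SE, limma adjusted p = 0.184), and 9.09% of genes showed such a split. No member had every KO library above every WT library (0 of 9, against 13.8% of genes).

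Cstdc4 differed by -0.58 ± 0.24 (SE, limma adjusted p = 0.209) and Stfa1 by -0.34 ± 0.21 (adjusted p = 0.402), with overlapping libraries. Stfa2 (0.07, adjusted p = 0.948) and Stfa2l1 (0.05, adjusted p = 0.919) differed by less than their standard errors of 0.42 and 0.23. Cst3 was 0.18 ± 0.08 higher in KO (SE, limma adjusted p = 0.220), and it passed under quantile normalization (0.27, adjusted p = 0.0109). Cst7 (-0.20, adjusted p = 0.459) and Cstb (-0.06, adjusted p = 0.768) did not pass. The median over the 6 cluster members was -0.46, beside 0.04 over all genes tested.

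**Figure D3:**
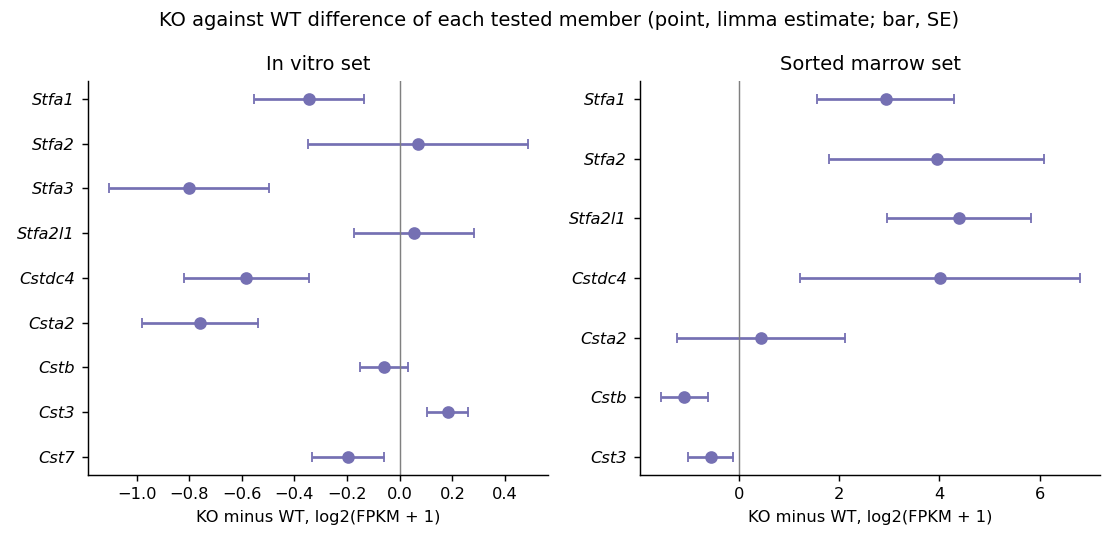
KO minus WT difference in log2(FPKM + 1) (horizontal axis, points with bars of 1 SE from limma), for 9 genes in vitro on the left and the 7 genes tested in sorted marrow on the right, on axes of different width. In vitro the differences lie between -0.80 and 0.18; in marrow the cluster genes lie between 0.45 and 4.39 with SE of 1.37 to 2.79.

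In sorted marrow Stfa1 and Cstdc4 ranked among the most abundant transcripts outside WT replicate 3, and the other chosen cluster members ranked lower. Stfa1 was listed at 13865 and 13258 FPKM in HET replicates 1 and 3, at 17906, 7459 and 9162 in KO and at 5823, 2700.2 and 174 in WT. It ranked 4 in both HET libraries, 5, 8 and 8 in KO and 10, 24 and 600 in WT, among 13195 genes listed. All HET and KO libraries lay above all WT libraries, and HET lay within the KO range. The authors may have scaled the 2 tables apart, so the level in marrow was not tested against that in vitro, where Stfa1 ranked between 1544 and 4321 of 22017. Cstdc4 ranked 11 to 64 in 7 marrow libraries and 6636 in WT replicate 3, while Csta2 ranked 1591 to 8195.

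Cstdc4 was listed at 3133 and 3198 FPKM in HET, at 5378, 1742 and 2428 in KO and at 1866, 1374 and 1.15 in WT, with KO replicate 2 below WT replicate 1. Stfa2l1 was listed at 652 and 657 FPKM in HET, at 1059.9, 322 and 176 in KO and at 129.6, 49.4 and 0 in WT, and both HET and KO stood clear of WT. Stfa2 was listed at 0 and 268 FPKM in HET, at 579.7, 92.5 and 34.4 in KO and at 77.1, 0 and 5.69 in WT. For Stfa2 all 3 groups overlapped. An exact 0 in a marrow library may be a failed estimate, which was not tested. The lysosomal protease gene Ctsd, used by most cells, was listed at 0 in both HET marrow libraries, the shallowest of the set.

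Csta2 was ordered differently from its near-identical copy. It was listed at 3.14 and 2.89 FPKM in HET, at 6.18, 12.4 and 49.7 in KO and at 45.1, 40.8 and 0 in WT. Both HET libraries lay below every KO library, and WT libraries stood among and below them, with KO replicate 3 the highest of all. Stfa3 was listed at 0 in both HET libraries, at 0, 25.2 and 55.4 FPKM in KO and at 0 in all 3 WT libraries.

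Outside the cluster, Cstb was listed at 775 and 326 FPKM in HET, at 235, 246 and 322 in KO and at 511, 965 and 362 in WT, so that all KO libraries lay below all HET and WT libraries. Cst3 was listed at 596 and 2403 FPKM in HET, at 831, 1375 and 1787 in KO and at 1989, 1778 and 1851 in WT. The 2 HET libraries spanned the whole range of the set. Cst7 was listed at 0 in both HET libraries, at 0.0620, 0.776 and 0 FPKM in KO and at 280.45, 0.0785 and 224 in WT, with WT replicate 2 at the level of the KO libraries.

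The cluster sum was 17653 and 17384 FPKM in HET, 24929, 9654 and 11905 in KO and 7941, 4164 and 181 in WT. It took 2.54 and 2.53% of a library's summed FPKM in HET, 1.46 to 3.42% in KO and 0.0310 to 1.21% in WT, against 0.00708 to 0.0369% in the in vitro libraries. Stfa1 made up 78.5 and 76.3% of the cluster sum in HET, 71.8 to 77.3% in KO and 64.8 to 96.2% in WT. The log2 ratio of the mean sums was 2.10 for HET to WT and 1.92 for KO to WT, 1.53 and 1.36 without WT replicate 3, and 3.01 and 2.83 without WT replicate 1.

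**Figure D4:**
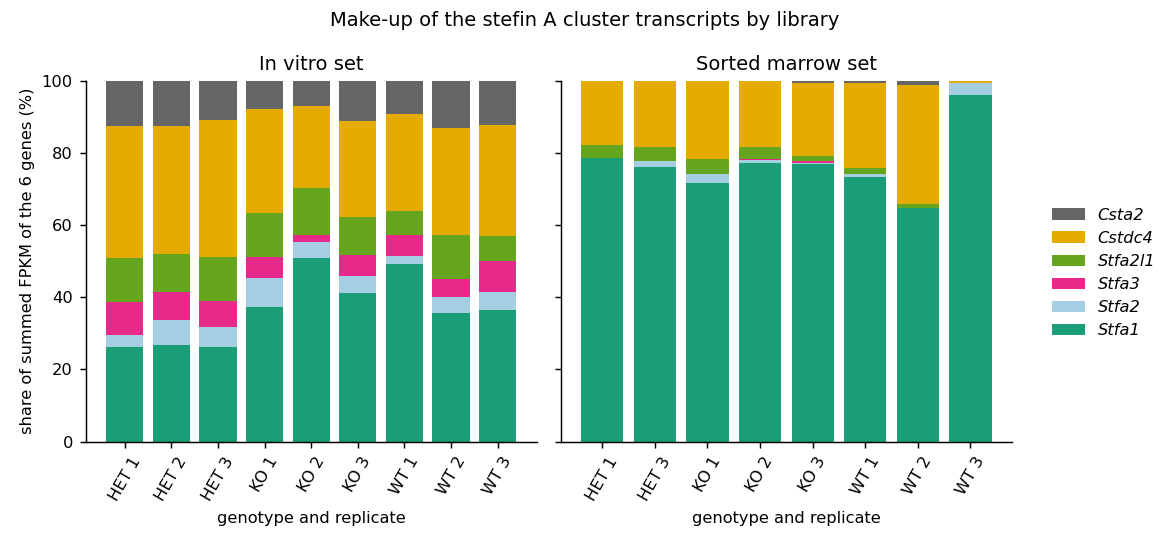
Share of each of the 6 stefin A cluster genes in their summed FPKM (vertical axis, percent), a stacked bar per library with HET at the left of each panel, in vitro on the left and sorted marrow on the right. Stfa1 fills 26.1 to 51.0% of the bars in vitro and 64.8 to 96.2% in marrow.

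None of the 7 tested genes passed in any marrow comparison by limma. For HET against WT 0 of 7 passed, against 0.262% of the 7246 genes, and 1 of 7 had an unadjusted p under 0.05 (12.4% of genes). For HET against KO 0 of 7 passed (0.166% of genes), and 0 of 7 had an unadjusted p under 0.05 (11.3% of genes). For KO against WT 0 of 7 and 0 of all genes passed (0% of 7246), and 2 of 7 had an unadjusted p under 0.05 (5.11% of genes). The pattern that chose the genes in vitro was HET above both other genotypes. The test nearest to it was HET against the mean of WT and KO, which can be positive where WT alone is low. In that test 0 of 7 passed (0.469% of genes), with 0 of 7 at an unadjusted p under 0.05 (12.6% of genes).

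The largest of these differences were those of Stfa2l1, whose log2 difference was 5.13 ± 1.61 for HET against WT (SE, limma adjusted p = 0.233) and 4.39 ± 1.44 for KO against WT (adjusted p = 0.653). Without WT replicate 3 they were 3.01 and 2.28. Stfa1 differed by 3.27 ± 1.53 for HET against WT (SE, limma adjusted p = 0.465) and by 2.93 ± 1.37 for KO against WT (adjusted p = 0.993), and by 1.77 and 1.43 without WT replicate 3. Cstdc4 differed by 4.16 ± 3.12 for HET against WT (SE, limma adjusted p = 0.582) and by 4.004 ± 2.79 for KO against WT (adjusted p = 0.995), and by 0.98 and 0.82 without WT replicate 3. These 2 comparisons share their WT libraries.

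None of the other 4 tested genes passed either. Stfa2 differed by 1.03 ± 2.40 for HET against WT and by 3.95 ± 2.14 for KO against WT (SE, limma adjusted p = 0.857 and 0.993), and by 0.89 and 3.81 without WT replicate 3. Csta2 differed by -1.63 ± 1.87 for HET against WT and by 0.45 ± 1.68 for KO against WT (SE, limma adjusted p = 0.713 and 0.999), and by -3.45 and -1.37 without WT replicate 3, which listed it at 0. Cst3 differed by -0.64 ± 0.50 for HET against WT and by -0.56 ± 0.44 for KO against WT (SE, limma adjusted p = 0.570 and 0.995), and by -0.65 and -0.57 without that library. Cstb differed by -0.16 ± 0.53 for HET against WT (SE, limma adjusted p = 0.905), and by -0.48 without it.

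Libraries did not overlap, with HET above WT, for 3 of the 7 tested genes (5.8% of genes), which were Stfa1, Stfa2l1 and Cstdc4, and with KO above WT for 2 of 7 (4.11% of genes), which were Stfa1 and Stfa2l1. For HET against KO the libraries did not overlap for 1 of 7 with HET above (Cstb; 7.27% of genes) and 1 of 7 with HET below (Csta2; 20.7% of genes). HET against KO gave log2 differences of 0.34 ± 1.53 for Stfa1, 0.16 ± 3.12 for Cstdc4 and -2.08 ± 1.87 for Csta2 (SE, limma adjusted p = 0.943, 0.990 and 0.642). Against the mean of WT and KO, HET differed by 1.81 ± 1.37 for Stfa1, 2.93 ± 1.44 for Stfa2l1 and 2.16 ± 2.79 for Cstdc4 (SE, limma adjusted p = 0.5005, 0.419 and 0.708), and by 1.06, 1.88 and 0.57 without WT replicate 3. In that comparison Stfa2 (-0.95 ± 2.14, limma adjusted p = 0.843) and Csta2 (-1.86 ± 1.68, adjusted p = 0.538) had the opposite sign, with -1.02 and -2.77 without WT replicate 3. Cstb differed by 0.38 ± 0.47 and Cst3 by -0.36 ± 0.44 (SE, limma adjusted p = 0.684 and 0.674), and by 0.22 and -0.37 without that library. For 0 of 7 genes did both HET libraries lie above, or below, all KO and WT libraries (3.77% and 11.6% of genes). Cstb differed by -1.08 ± 0.47 for KO against WT (SE, limma adjusted p = 0.943), with every KO library below every WT library (1 of 7 genes, against 8.14% of genes), and by -1.40 without WT replicate 3. The median log2 difference over all genes tested was -0.99 for HET against WT, -0.83 for HET against KO, -0.18 for KO against WT and -0.997 for HET against the mean of both. The differences of the 7 genes stand beside those medians.

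**Figure D5:**
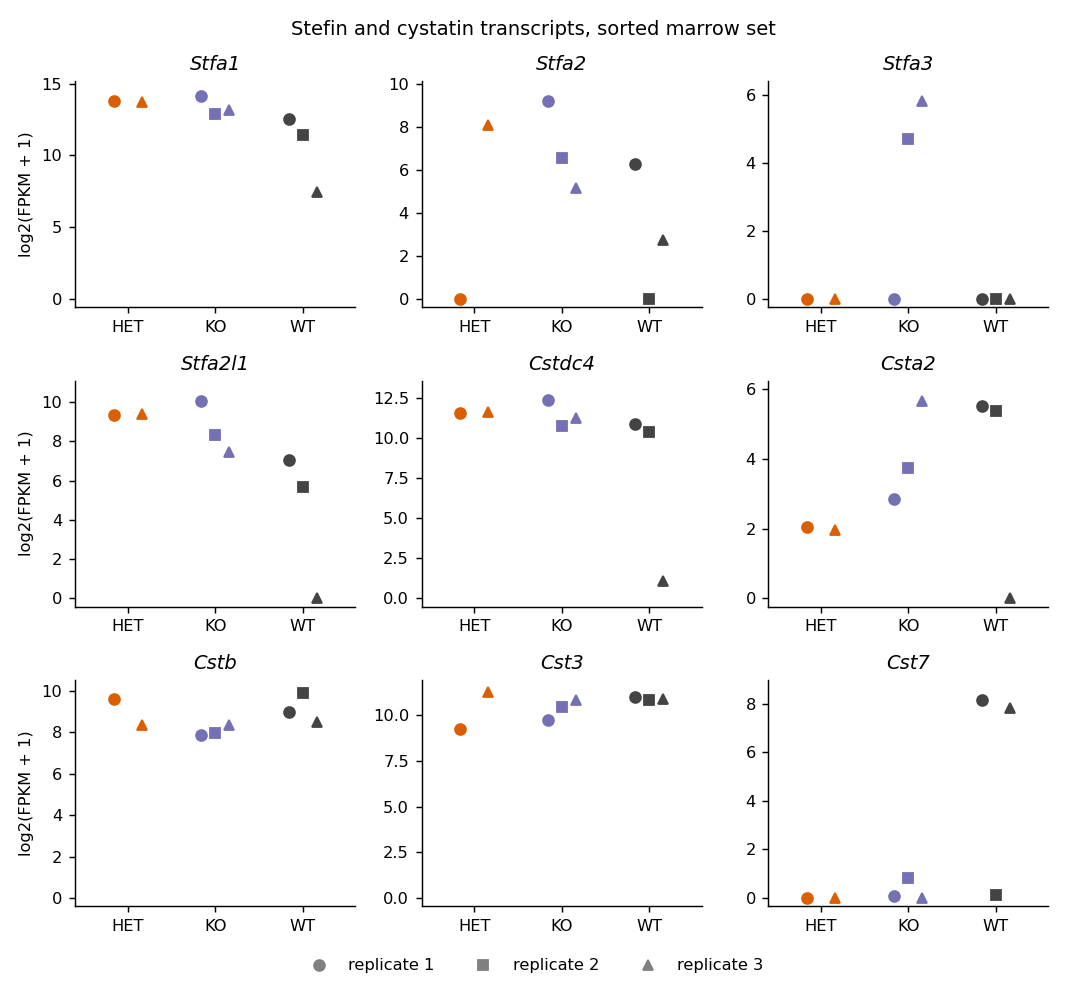
Expression in log2(FPKM + 1) of the 9 genes in the 8 sorted marrow libraries (vertical axis, 1 panel per gene), by genotype, with points for libraries and shapes for replicate numbers. WT replicate 3 (triangle) lies far below the other WT libraries for Stfa1 (174 FPKM), Stfa2l1 (0) and Cstdc4 (1.15), and both HET libraries lie at or close to each other for these 3 genes.

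The neutrophil marker sum in marrow, like the cluster sum, was lowest in WT. So was the dendritic cell marker sum, at 945 to 1427 FPKM in WT, against 3783 and 3903 in HET and 2026 to 5107 in KO. The sums of monocyte and macrophage markers and of primary granule markers overlapped among genotypes, and the eosinophil marker sum was highest in WT. The 15 neutrophil markers summed to 112548 and 101696 FPKM in HET, 101047 to 164806 in KO and 46454, 33359 and 2302 in WT, and the cluster sum was 15.7 and 17.1% of that sum in HET, 9.55 to 15.1% in KO and 7.87 to 17.1% in WT. Of the 15 markers, 7 were listed at 0 in each HET library, 1 to 3 in KO and 1 to 6 in WT, with Ltf, Ly6g, Retnlg and Cxcr2 at 0 in both HET libraries. Taken singly, 6 of 13 tested markers had a positive log2 difference for HET against WT (median -0.05, beside -0.99 over all genes). For KO against WT 12 of 13 did (median 3.13, beside -0.18), and for HET against KO 1 of 13 (median -1.99, beside -0.83). In these comparisons 0 of 13 passed by limma, against 0.262%, 0% and 0.166% of all genes. In WT replicate 3 the granule gene Camp was at 150.0 FPKM, against 5809 and 5084 in the other WT libraries, and S100a8 at 837, against 33972 and 28261. Their part in the stefin values was not tested. All 4 Y chromosome genes of the list were at 0 in both HET libraries and in WT replicates 1 and 2. They summed to 3.90 FPKM in WT replicate 3 and to 4.26 to 34.6 FPKM in KO.

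Of the protease genes in marrow, 0 of 7 tested passed in any comparison, where 0 to 0.469% of the 7246 genes passed. Ctss was listed at 1059 and 681 FPKM in HET, at 491, 1023 and 851 in KO and at 718, 678 and 805 in WT, with overlapping groups. Slpi, which encodes an inhibitor of neutrophil elastase and cathepsin G, was lower in HET. It was listed at 632 and 631 FPKM in HET, at 1734, 1943 and 2321 in KO and at 2255, 2780 and 3884 in WT. Both HET libraries lay below all others, a pattern that 11.6% of the 7246 genes showed. Over all genes tested the median log2 difference was -0.99 for HET against WT and -0.83 for HET against KO. All 19 genes called for HET against WT and all 12 for HET against KO were lower in HET. The Slpi log2 difference was -2.20 ± 0.28 to WT (SE, limma adjusted p = 0.0118) and -1.65 ± 0.28 to KO (adjusted p = 0.0459). The first call ended without any WT or KO library (adjusted p 0.0590 to 0.0867), and the second likewise (0.118 to 0.319). Fitted on the compared groups alone, the adjusted p was 0.307 and 0.348. The second call also ended with no filter (0.0704), quantile normalization (0.0648) and rescaling to TPM (0.0650).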

How the data were processed

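The labels describe 18 mouse bone marrow samples, of which 17 libraries were analysed. Per the labels' protocols, TRIzol was used for RNA and a VAHTS Universal kit for bulk libraries. The submitters' processing notes name mm10. The authors deposited FPKM, per the file headers, for each set. Strand, aligner, annotation and counter were not given in the sources used here.

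Log2(FPKM + 1) values were tested by limma 3.58.1 (R 4.3.3; statmod 1.5.0; data.table, version 1.17.8) with trended, robust moderation, after a filter of FPKM 1 or more in 3 or more libraries. Per set, 1 model held the genotype means without a block. Adjustment was by Benjamini-Hochberg over all genes (threshold 0.05), and the script was checked on simulated data. The sets were not tested against each other. FPKM carry no counts, and a few dominant transcripts lower all other values. Depth was estimated from the steps of low values (77.1 to 87.3% of them within 0.1 of a whole step) and entered no test. Coding sequences and exons came from GENCODE M21, and promoters and positions from RefSeq. Python 3.11.15 (pandas 2.3.3, numpy 2.4.6, Biopython 1.88, matplotlib 3.10.9) made sums, sequences and plots.

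The 9 genes and the gene lists were chosen with earlier results of these data known. Named besides them were up to 4 called genes by smallest p of the lists of cystatins, cysteine proteases and other protease inhibitors, and the nearest profiles (5 for the cluster sum and 3 for Cst7). The alternatives were a pseudocount of 0.1, other filters, 3 scalings, fits of the compared groups alone, the replicate number as a block, and leaving out each library.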

Additional observations from a re-analysis of the deposited data

Results flagged for a closer look

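Csta2 differed in opposite directions between HET and KO in the 2 sets. In vitro the HET minus KO difference was 2.09 on the log2(FPKM + 1) scale, with all 3 HET libraries (16.0, 21.9 and 18.9 FPKM) above all 3 KO libraries (3.70, 3.37 and 3.86 FPKM). In marrow it was -2.08, with both HET libraries (3.14 and 2.89 FPKM) below all 3 KO libraries (6.18, 12.4 and 49.7 FPKM). The difference between the sets was not tested, since the authors may have scaled the tables apart. The marrow value did not pass the threshold (limma adjusted p = 0.642) and was -0.28 under quantile normalization. Its near-identical copy Cstdc4 differed by 2.26 in vitro and 0.16 in marrow, and fragments could have been divided between the copies, which was not tested.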

How the results depend on the processing

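Of the differences of the 9 genes and the other named genes, most kept direction and side of the threshold; in none of these cases was the cause of a change tested. Genes past the threshold in vitro numbered 400 for HET against WT (250 with no filter beyond a value above 0, 261 with only the compared groups, 234 with the replicate block, 84 to 628 with a library left out), 216 for HET against KO (136 with a filter at FPKM of 5, 73 to 344) and 325 for KO against WT (152, 175 and 172 in the same settings as HET against WT, 66 to 475). For KO against WT 0 of the 9 genes passed, 1 under quantile normalization and 0 to 1 with a library left out. In marrow the counts were 19 for HET against WT (35 with a pseudocount of 0.1, 12 under quantile normalization, 0 with only the compared groups, 0 with the replicate block, 0 to 323 with a library left out), 12 for HET against KO (31, 7, 0 and 0 in those settings, 6 with no filter, 0 to 330), 0 for KO against WT (2 under quantile normalization, 0 to 4) and 34 for HET against the mean of both (111 with a pseudocount of 0.1, 0 with the replicate block, 0 to 368).

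Quantile normalization brought the share of higher calls in vitro to 60.2% of calls for HET against WT, beside 80% as reported, and to 35.1% for KO against WT, beside 45.5%. Median-ratio size factors gave 35.4% for KO against WT. In marrow quantile normalization brought the median of all genes to -0.03 for HET against WT and -0.01 for HET against KO.

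The HET to KO log2 ratio of the marrow cluster sum was 0.18, and -0.10 with median-ratio size factors (-0.0722 to 0.70 with a library left out, lowest without KO replicate 2 and highest without KO replicate 1). Directions turned for Cstb HET against WT in vitro with TPM (0.0365), Cst3 HET against WT in vitro with quantile normalization (0.0454), Stfa2l1 KO against WT in vitro with quantile normalization (-0.00316), Cstb HET against WT in marrow with the replicate block (0.00240) and Cstdc4 HET against KO in marrow with median-ratio size factors (-0.0718). With a library left out, in vitro ranges that crossed 0 were -0.0234 to 0.0710 (Cstb, HET against KO), -0.11 to 0.0563 (Cstb, HET against WT), -0.13 to 0.0366 (Cstb, KO against WT), -0.30 to 0.42 (Stfa2, KO against WT) and -0.21 to 0.26 (Stfa2l1, KO against WT). In marrow they were -1.09 to 0.92, -1.65 to 0.36 and -1.37 to 0.64 for Cst3 (HET against KO, WT and the mean of both), -1.37 to 1.39 for Csta2 (KO against WT), -0.79 to 0.46 and -0.25 to 1.002 for Cstb (HET against WT and the mean of both), -0.19 to 0.62 for Cstdc4 (HET against KO), and -6.96 to 1.11, -3.01 to 5.06 and -4.98 to 3.09 for Stfa2 (HET against KO, WT and the mean of both).

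Libraries of like replicate number did not deviate together (correlations of -0.303 to 0.181 in vitro and -0.019 to 0.032 in marrow), so the numbers were not taken as pairs. With the replicate block, Ctsl (adjusted p = 0.0603), Ctsc (0.0697) and Slpi (0.0856 for HET against WT and 0.212 for HET against KO) no longer passed by limma. The marrow HET libraries, of 3.94 and 11.7 M fragments, limit what marrow can show for genes of low FPKM.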

Other observations

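In marrow, Stfa3 was listed above 0 in KO replicates 2 and 3 alone, at 25.2 and 55.4 FPKM. Csta3, another stefin A gene of the chromosome 16 cluster, chosen here after its values were seen, was listed above 0 in the same libraries alone, at 70.1 and 98.5 FPKM. The neutrophil surface marker gene Ly6g was listed at 34.1 FPKM in KO replicate 3 and at 0 in every other marrow library. In vitro Csta3 was listed at 0.684, 0.994 and 0.887 FPKM in HET, at 0.405, 0 and 0 in KO and at 0, 0.192 and 0 in WT.

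Cst7 was listed above 1 FPKM in WT replicates 1 and 3 alone among the marrow libraries, at 280.45 and 224 FPKM, although all 9 in vitro libraries held it at 67.7 to 115 FPKM. Its target Ctsc was listed in every marrow library, at 204 and 44.5 FPKM in HET, at 139.7, 67.8 and 57.3 in KO and at 54.1, 109 and 119 in WT.

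Camp and Ngp, which share the cystatin fold in their precursors, gave another view of WT replicate 3 in marrow. The cluster sum there was 77.7% of their sum, beside 81.3 and 56.9% in the other WT libraries, 75.2 and 59.9% in HET and 23.4 to 47.2% in KO.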
